A study of Mus musculus with 10 samples.

Results

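The genes described here are the nuclear-encoded respiratory chain genes, taken as the entries whose symbol begins with Ndufa, Ndufb, Ndufc, Ndufs or Ndufv and a digit, is Sdha, Sdhb, Sdhc or Sdhd, or begins with Uqcr, Cox4 to Cox8 or Atp5. They numbered 85 of 22867 gene symbols, with 37 in complex I, 4 in complex II, 8 in complex III, 19 in complex IV and 17 in complex V. RNA sequencing gave their levels in 10 libraries of mouse embryonic cells of 129SV origin, grown in culture. Epiblast-like cells (EpiLCs), a model of the early post-implantation epiblast, were represented by 1 library of an Otx2-/- line, 1 of R1 cells with activin A at 20 ng/ml, 1 of R1 cells without it and 1 of E14 cells. Differentiation took 48 h in medium with bFGF and 1% knockout serum replacement. The labels do not say whether the Otx2-/- and E14 EpiLCs had activin A. Embryonic stem cells (ESCs) were represented by 1 library of Otx2-/- cells with a tetON Otx2 transgene and doxycycline (dox), 1 of the same cells without dox, 1 of Otx2-/- cells, 2 replicates of R1 cells and 1 of E14 cells. ESC medium held LIF with PD0325901 (0.8 µM), which inhibits MEK, and CHIR99021 (3.3 µM), which inhibits GSK3, in every ESC library. Otx2 encodes a homeobox transcription factor of the epiblast. The sources used here do not give the deleted stretch, the dose or duration of dox, or whether each line is 1 clone.

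The respiratory chain passes electrons from NADH and succinate to oxygen in the inner mitochondrial membrane. Complexes I (NADH dehydrogenase), III (cytochrome bc1) and IV (cytochrome c oxidase) pump protons as electrons pass, complex II (succinate dehydrogenase) feeds in electrons from the citric acid cycle, and complex V (ATP synthase) uses the proton gradient to make ATP. Most subunits are encoded in the nucleus, and a small set of hydrophobic ones, not covered here, in mitochondrial DNA. Naive mouse ESCs are known to use both respiration and glycolysis, while cells of the primed state rely more on glycolysis. Several symbols are not plain subunits of the complex they are listed with. Cox4nb (now Emc8) belongs to an endoplasmic reticulum membrane complex, Atp5sl (now Dmac2) takes part in complex I assembly, Atp5s is a factor associated with ATP synthase, and the product of Ndufa4 is found in complex IV.

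Values are FPKM, fragments per kilobase of transcript scaled to library size, as the authors deposited them. At the approximate depth, lowest in E14 EpiLC and highest in R1 ESC replicate 2, a level of 100 FPKM rested on about 652 to 2056 fragments per kilobase. The R1 ESC replicates differed from each other in more genes than another pair of ESC libraries did. Between R1 ESC replicate 2 and replicate 1, 496 genes were higher and 557 lower by at least 2-fold with 5 FPKM in 1 of the pair, while between the Otx2-/- tetON ESCs without dox and the Otx2-/- ESCs, 120 were higher and 122 lower. The summed level of 4 EpiLC markers was 388 to 476 FPKM in R1 and E14 EpiLC, against 40.0 to 84.5 FPKM in R1 and E14 ESC. That of 4 naive markers was 17.9 to 32.1 FPKM in EpiLC, against 432 to 565 FPKM in ESC. Markers of other cells, 4 genes each and none of them at 0 throughout, summed to at most 4.84 FPKM for primitive endoderm, 11.9 FPKM for trophoblast and 5.33 FPKM for fibroblasts. The highest trophoblast sum was that of R1 ESC replicate 1, against 3.54 FPKM in R1 ESC replicate 2 and 2.17 FPKM in E14 ESC. In R1 and E14 EpiLC it was 4.74 to 8.24 FPKM. The fibroblast sum was 1.34 to 5.33 FPKM in R1 and E14 EpiLC, against 0.142 to 0.422 FPKM in R1 and E14 ESC, and its part in the results was not tested. Otx2 was at 15.8 FPKM in Otx2-/- EpiLC, against 39.9 to 151 FPKM in R1 and E14 EpiLC. In Otx2-/- ESC it was at 7.85 FPKM, within the 3.96 to 9.09 FPKM of R1 and E14 ESC, and a level over the whole gene does not check a deletion whose extent is not given. It was at 1059 FPKM with dox, against 45.8 FPKM without.

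Respiratory chain transcripts were among the most abundant of these cells. Averaged over the 10 libraries, 53 of the 85 genes reached 100 FPKM and 72 reached 50 FPKM, and the median gene stood at percentile 97.3 of all symbols. Atp5b, the catalytic beta subunit of ATP synthase, had the highest mean at 1149 FPKM, followed within complex V by the alpha subunit gene Atp5a1 at 626 FPKM. Cox8a (520 FPKM) and Cox7c (503 FPKM), small subunits around the core of cytochrome c oxidase, led complex IV. Uqcr11 (327 FPKM) and Uqcr10 (305 FPKM), small subunits of cytochrome bc1, led complex III, and Sdha (109 FPKM) and Sdhd (106 FPKM) led complex II. Ndufa4 (346 FPKM) and Ndufa7 (296 FPKM) led complex I.

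At the other end, 9 genes averaged under 20 FPKM and 5 of them under 5 FPKM. Cox6a2 and Cox8b, isoforms of heart and skeletal muscle, were at or near 0 in every library, with highest values of 0.125 and 0.252 FPKM, and were the only genes of the set that did not reach the mean of 1 FPKM used for tests. The other 83 were above 0 in all 10 libraries. Cox7b2 (1.28 FPKM), an isoform known from testis, and Cox4i2 (1.92 FPKM), known from lung and from the response to low oxygen, were also low. The lowest means of the other complexes were those of Ndufa4l2 (17.8 FPKM), Sdhb (80.3 FPKM), Uqcrc2 (94.1 FPKM) and Atp5s (5.73 FPKM).

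Summed over the set, the level was 14049 ± 799 FPKM in EpiLC, against 17528 ± 947 FPKM in ESC (SD, n = 3 R1 and E14 libraries each). As a share of all FPKM this was 2.34 ± 0.0840% in EpiLC, against 2.70 ± 0.0846% in ESC, and the groups did not overlap. The Otx2-/- line gave 2.25% in EpiLC, against 2.72% in ESC. The highest shares of the series were those of the Otx2-/- tetON ESCs, at 2.88% with dox and 2.79% without. The 4 EpiLC libraries held the 4 lowest shares of the 10. Among entries at or below the 99th percentile of level, the share of R1 EpiLC without activin A (2.93%) was above that of R1 ESC replicate 1 (2.85%), so there the groups overlapped. The sums of complexes II, III and V were lower in each of the 3 R1 and E14 EpiLC libraries than in each of the 3 ESC libraries, and so were those of complexes I and IV. As a share of all FPKM, complex I overlapped between the groups, at 0.617 ± 0.0497% in EpiLC and 0.679 ± 0.0386% in ESC (SD, n = 3 each), while the shares of the other complexes did not. The largest difference by ratio was that of complex III, at 1462 ± 83.6 FPKM in EpiLC, against 2006 ± 279 FPKM in ESC, and R1 ESC replicate 1 was highest there at 2319 FPKM. Fewer cells of a type and less RNA per cell cannot be told apart in such bulk samples.

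**Figure D1:**
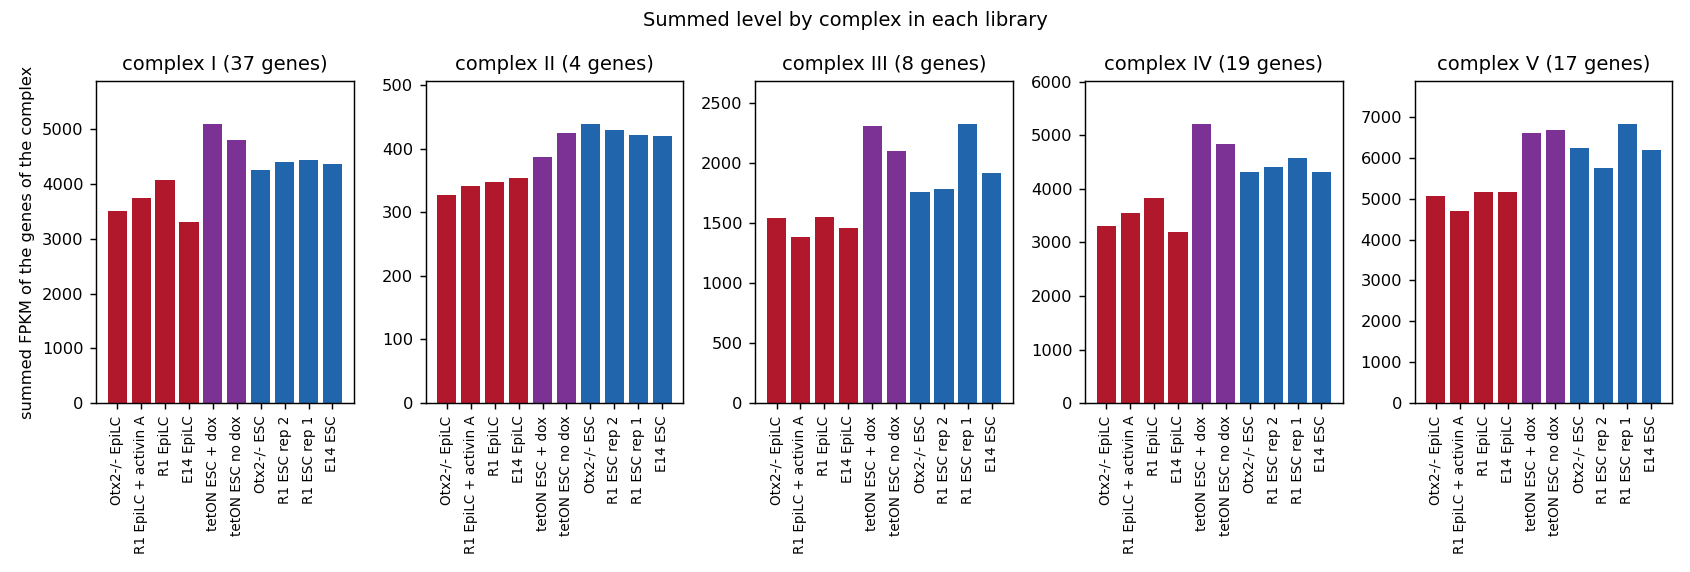
Summed FPKM of the genes of each complex (y axes, each from 0) in the 10 libraries (x axes), with EpiLC in red, Otx2-/- tetON ESC in purple and other ESC in blue. Each bar is 1 library. The 4 EpiLC bars are the lowest in each panel.

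The conversion of ESC to EpiLC is the central comparison of the series. On it, 10 of the 83 tested respiratory chain genes fell and 1 rose (limma, adjusted p under 0.05), where 10.6% of all 12244 genes tested were lower and 9.73% higher. The 10 make up 12.0% of the set, a share close to the background. The median log2 fold change of the set was -0.30, against -0.09 over all genes, and 65 of the 83 genes lay below 0, or 78.3% against 56.3% of all genes. The medians by complex were -0.22 in complex I, -0.34 in II, -0.35 in III, -0.28 in IV and -0.35 in V. The 3 EpiLC libraries lay below all 3 ESC libraries for 36 of the 83 genes, which is the case for 25.5% of all genes, and above them for 2, where the background is 19.7%. At an unadjusted p under 0.05 (limma), 25 genes of the set (30.1%) were lower, against 20.3% of all genes. By the same measure 2 (2.41%) were higher, against 16.5%. Differences were therefore small and mostly downward, and after adjustment the share that fell was close to the background.

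**Figure D2:**
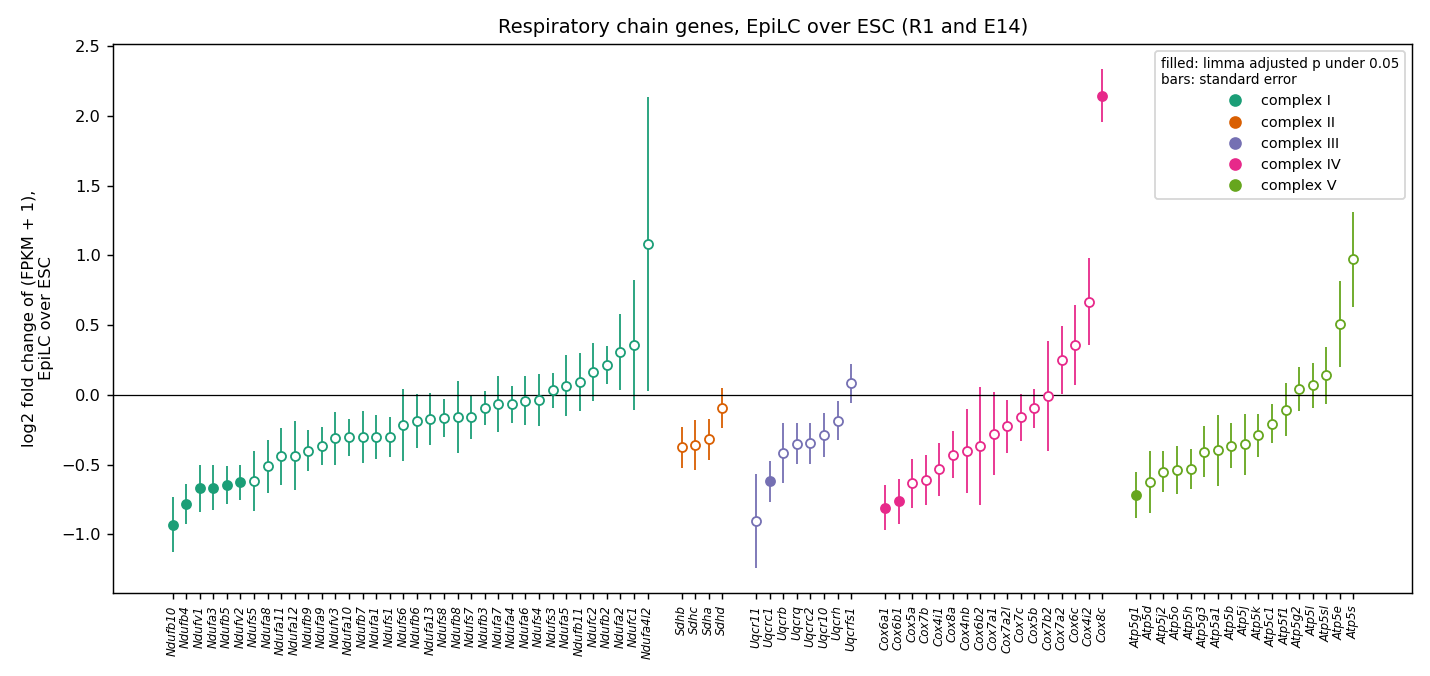
Log2 fold change of (FPKM + 1), EpiLC over ESC, for the tested genes by complex (y axis), 1 gene left out, ordered by size within each complex (x axis). Bars are standard errors, and filled points passed the limma threshold. Most points lie between -1 and 0, and Cox8c stands alone at 2.15.

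Which genes were called depended on the libraries. Without R1 ESC replicate 1, 18 genes were lower (21.7%, against 18.1% of all genes in that fit) and 2 higher, and the 18 included all 10. The 8 added were Cox5a, Ndufa11, Atp5j2, Sdhc, Sdhb, Cox7b, Atp5h and Atp5o, with log2 fold changes from -0.78 to -0.40, and Atp5s was the added higher gene at 0.59. Without any 1 of the R1 EpiLC with activin A, the R1 EpiLC without it, the E14 EpiLC or the E14 ESC library, none of the set was called lower by limma, and 1.53% to 2.81% of all genes were. At an unadjusted p under 0.05, 10 to 14 genes of the set (12.0% to 16.9%) were lower in these fits, against 12.0% to 16.0% of all genes. Cox8c was called higher in each of these. The median log2 fold change of the set lay between -0.33 and -0.25 over the 6 fits that each left out 1 library. With line as a covariate, a lone E14 library carries no information on state. The fits without E14 EpiLC and without E14 ESC therefore both rest on the R1 libraries, each with a median of -0.26, and are not separate checks. After quantile normalization it was -0.11, against -0.02 over all genes, and 6 genes were lower (7.23%, against 11.1% of all genes).

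Complex I held 6 of the 10 genes that fell, and 29 of its 37 genes lay below 0. In the following, EpiLC values are for R1 with activin A, R1 without and E14, and ESC values for R1 replicate 2, R1 replicate 1 and E14. Ndufb10, an accessory subunit of the membrane arm on mm9 chromosome 17 at 24859011 to 24861333, had 59.6, 65.8 and 63.6 FPKM in EpiLC, against 98.4, 151 and 118 FPKM in ESC. The groups were well apart, and its log2 fold change was -0.93 (SE 0.20, limma adjusted p = 0.0290). Ndufb4, another accessory subunit, had 150, 165 and 96.8 FPKM in EpiLC, against 251, 252 and 193 FPKM in ESC (-0.78, SE 0.14, limma adjusted p = 0.0202). E14 was lower than R1 in both states. RefSeq lists the named copies Ndufb4b and Ndufb4c, so its value is uncertain by the reads they may share. Ndufb5 had 65.3, 68.4 and 59.0 FPKM in EpiLC, against 94.0, 111 and 99.3 FPKM in ESC, and fell by 0.65 on the log2 scale (limma adjusted p = 0.0286). Ndufa3 had 128, 151 and 101 FPKM in EpiLC, against 190, 228 and 182 FPKM in ESC, and fell by 0.67 (limma adjusted p = 0.0409). Both are accessory subunits, and neither had overlapping groups.

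The remaining pair of called complex I genes encodes core subunits of the NADH-oxidising tip. Ndufv1, which binds NADH and FMN, had 69.1, 73.8 and 64.8 FPKM in EpiLC, against 94.1, 128 and 112 FPKM in ESC, which is -0.67 on the log2 scale (SE 0.17, limma adjusted p = 0.0447). Ndufv2, the iron-sulfur subunit beside it, had 75.4, 74.9 and 59.7 FPKM in EpiLC, against 108, 118 and 98.8 FPKM in ESC (-0.63, SE 0.13, limma adjusted p = 0.0256). Ndufs1, Ndufs3, Ndufs7 and Ndufs8, core subunits of the arm that carries the electrons on to ubiquinone, did not pass. Ndufs1 was at -0.30, Ndufs3 at 0.03, Ndufs7 at -0.16 and Ndufs8 at -0.16, with limma adjusted p between 0.196 and 0.873. Ndufs3 had 86.4 ± 3.69 FPKM in EpiLC and 84.5 ± 2.08 FPKM in ESC (SD, n = 3 each). Ndufb2, an accessory subunit, was higher in each EpiLC library (116, 133 and 119 FPKM) than in each ESC library (106, 98.4 and 112 FPKM) but did not pass (0.22, limma adjusted p = 0.304).

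In complex II, all 4 genes lay below 0 and none passed. The flavoprotein gene Sdha had 95.7 ± 6.02 FPKM in EpiLC and 120 ± 12.1 FPKM in ESC (SD, n = 3 each). The iron-sulfur subunit gene Sdhb had 65.5, 67.5 and 65.9 FPKM in EpiLC, against 100.0, 78.2 and 82.5 FPKM in ESC, the largest difference of the complex at -0.38 (limma adjusted p = 0.132). Of the membrane anchors, Sdhc was at -0.36 and Sdhd at -0.09. Groups overlapped for Sdhd alone.

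In complex III, Uqcrc1, a core protein facing the matrix, was called. It had 143, 149 and 155 FPKM in EpiLC, against 207, 256 and 228 FPKM in ESC, which is -0.62 on the log2 scale (SE 0.15, limma adjusted p = 0.0399). Its partner Uqcrc2 was at -0.35 (limma adjusted p = 0.154), with 83.0 ± 0.466 FPKM in EpiLC and 107 ± 14.7 FPKM in ESC (SD, n = 3 each). Uqcrfs1, the Rieske iron-sulfur protein, was at 0.08. Uqcr11 had the largest estimate of the complex at -0.90 and did not pass (SE 0.34, limma adjusted p = 0.119). It had 211, 238 and 180 FPKM in EpiLC, against 271, 648 and 340 FPKM in ESC. The 648 FPKM of R1 ESC replicate 1 was the highest value of this gene in the series.

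In complex IV, 2 small subunit genes fell. Cox6a1, on mm9 chromosome 5 at 115795662 to 115798964, had 281, 288 and 223 FPKM in EpiLC, against 425, 554 and 415 FPKM in ESC (log2 fold change -0.81, SE 0.16, limma adjusted p = 0.0252). Cox6b1 had 220, 246 and 201 FPKM in EpiLC, against 340, 435 and 361 FPKM in ESC (-0.76, SE 0.16, limma adjusted p = 0.0290). Neither overlapped. Of the other ubiquitous subunits, Cox5a lay just outside the threshold at -0.64 (limma adjusted p = 0.0582), Cox4i1 was at -0.54 (limma adjusted p = 0.102) and Cox5b at -0.10 (limma adjusted p = 0.645). Cox5a had 245, 255 and 266 FPKM in EpiLC, against 426, 315 and 466 FPKM in ESC. Cox6c was at 0.36 and Cox7a2 at 0.25, neither past the threshold.

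In complex V, Atp5g1 was called, a gene for the c subunit of the membrane ring. It had 162, 196 and 195 FPKM in EpiLC, against 254, 314 and 347 FPKM in ESC (log2 fold change -0.72, SE 0.16, limma adjusted p = 0.0362). Atp5b, Atp5a1, Atp5c1 and Atp5d, of the catalytic head and central stalk, were lower in every EpiLC library than in any ESC library without passing. Atp5b had 1008, 1051 and 979 FPKM in EpiLC, against 1233, 1496 and 1199.6 FPKM in ESC (-0.36, limma adjusted p = 0.164). Atp5a1 was at -0.40, Atp5c1, the rotating gamma subunit, at -0.21, and Atp5d, the delta subunit, at -0.62, with R1 ESC replicate 1 the highest library for each. Atp5j2 (limma adjusted p = 0.0535) and Atp5h (limma adjusted p = 0.0568), subunits of the membrane part and the stalk, lay just outside the threshold. Atp5e, the epsilon subunit, was at 0.51, with 264 ± 35.4 FPKM in EpiLC and 198 ± 81.8 FPKM in ESC (SD, n = 3 each), and its 107 FPKM in R1 ESC replicate 1 was its lowest value.

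**Figure D3:**
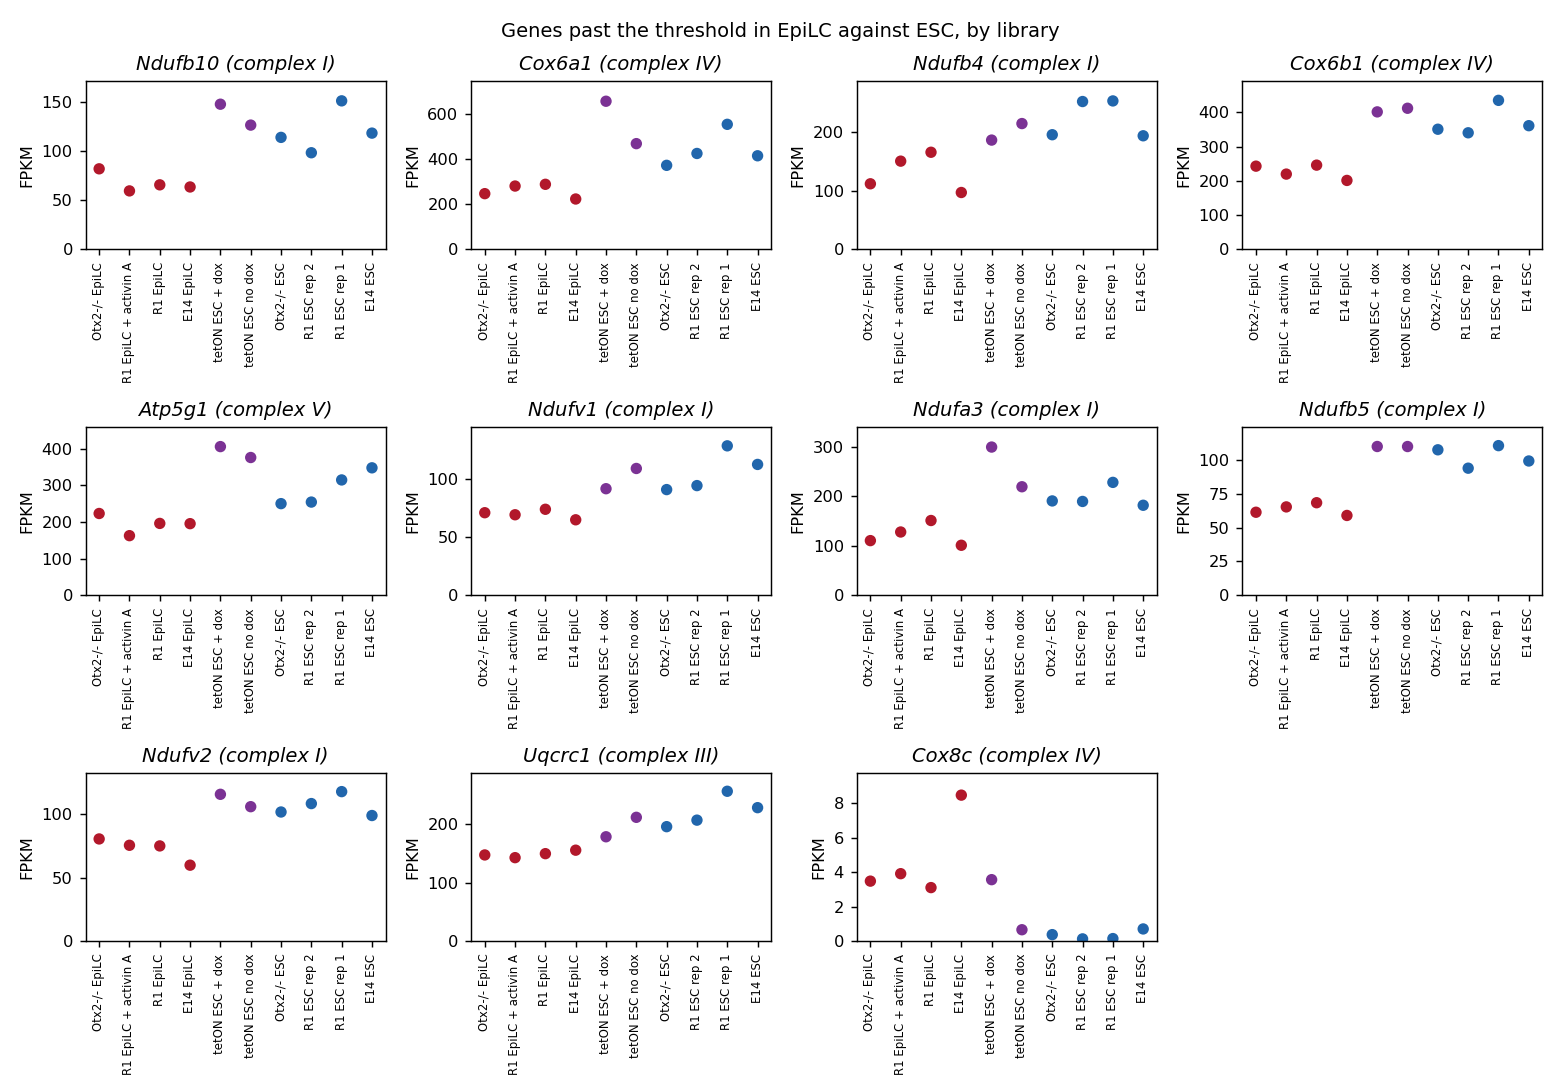
FPKM (y axes, from 0) in each of the 10 libraries (x axes) of the 11 genes past the limma threshold in EpiLC against ESC. Each point is 1 library, with EpiLC in red, Otx2-/- tetON ESC in purple and other ESC in blue. For the 10 lower genes every red point lies below every blue point, the Otx2-/- libraries included.

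Promoters of respiratory chain genes are known for binding sites of NRF1, of GABP and other ETS factors, and of YY1. RefSeq promoter windows on GRCm38.p6, 250 bases before to 50 after the start, matched 69 of the 85 genes. Exact motif letters were searched on both strands. These genes had 75 windows. The NRF1 motif GCGCATGCG was in 8 of the 75 (10.7%), against 1.75% of all 32817 windows. The ETS motif CCGGAAG was in 16 (21.3%), against 8.86% of all windows, the YY1 motif AAGATGGCG in 9 (12.0%), against 1.40%, and the cAMP response element TGACGTCA in 4 (5.33%), against 1.79%. No matches of different motifs overlapped in the windows of these genes. Of the 69 genes, 30 (43.5%) held at least 1 of the motifs. Of the 10 genes that fell, all had a window, and 3 held a motif. Their windows are shown because they let the motif be read in place, with the motif in capitals, in the direction of the gene. The NRF1 motif matches on both strands there, shifted by 1 base. That of Cox6a1 is chr5:115348909-115349208 on the minus strand and holds the NRF1 motif and the reverse of the ETS motif, that of Cox6b1 is chr7:30626065-30626364 on the minus strand and holds the reverse of the ETS motif, and that of Uqcrc1 is chr9:108936398-108936697 on the plus strand and holds the NRF1 motif.
Cox6a1: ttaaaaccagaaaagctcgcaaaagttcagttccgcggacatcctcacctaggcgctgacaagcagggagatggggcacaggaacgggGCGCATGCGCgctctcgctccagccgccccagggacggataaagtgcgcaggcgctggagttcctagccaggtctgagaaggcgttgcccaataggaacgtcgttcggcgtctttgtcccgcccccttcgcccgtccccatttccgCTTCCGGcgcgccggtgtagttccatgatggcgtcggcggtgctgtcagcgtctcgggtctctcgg
Cox6b1: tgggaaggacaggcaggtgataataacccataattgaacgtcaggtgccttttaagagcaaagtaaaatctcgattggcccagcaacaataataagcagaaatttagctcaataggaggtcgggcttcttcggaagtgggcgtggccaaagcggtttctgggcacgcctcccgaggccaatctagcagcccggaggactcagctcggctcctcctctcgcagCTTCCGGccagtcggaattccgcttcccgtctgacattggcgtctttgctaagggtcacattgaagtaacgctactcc
Uqcrc1: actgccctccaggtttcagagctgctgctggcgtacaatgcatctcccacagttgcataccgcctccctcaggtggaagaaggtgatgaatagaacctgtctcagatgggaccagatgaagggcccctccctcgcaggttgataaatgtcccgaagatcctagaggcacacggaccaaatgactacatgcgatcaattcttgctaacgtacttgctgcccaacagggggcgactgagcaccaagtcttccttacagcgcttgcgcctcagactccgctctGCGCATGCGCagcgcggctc

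The windows of Ndufb10, Ndufb4, Ndufb5, Ndufa3, Ndufv1, Ndufv2 and Atp5g1 held none of these exact letters. Of the factors' own genes, Gabpa, Nrf1 and Yy1 did not pass the test in EpiLC against ESC. Gabpa, the DNA-binding subunit of GABP, had 32.0 ± 3.29 FPKM in EpiLC and 53.0 ± 11.1 FPKM in ESC (SD, n = 3 each), with a limma adjusted p of 0.0607. Nrf1 had 22.3 ± 0.829 FPKM in EpiLC and 28.2 ± 5.48 FPKM in ESC (limma adjusted p = 0.273). Yy1 had 41.3 ± 1.32 FPKM in EpiLC and 55.1 ± 10.2 FPKM in ESC (limma adjusted p = 0.168). The deposited locus of Gabpa is the same as that of the complex V gene Atp5j. Whether their exons overlap was not checked, and reads of overlapping exons cannot be told apart without strand.

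Cox8c was the gene that rose. It encodes an isoform of subunit VIII known from testis and lies on mm9 chromosome 12 at 104137515 to 104138744. It had 3.91, 3.10 and 8.47 FPKM in EpiLC, against 0.127, 0.144 and 0.704 FPKM in ESC, which is 2.15 on the log2 scale (SE 0.19, limma adjusted p = 0.00390) and 15.9 times by the means. Every EpiLC value was above every ESC value, and the ESC values rest on few fragments. The Otx2-/- line had 3.48 FPKM in EpiLC, against 0.374 FPKM in ESC. Otx2-/- tetON ESCs had 3.56 FPKM with dox, against 0.658 FPKM without. The 5 libraries with 3 FPKM or more were therefore the 4 EpiLC libraries and the ESC library with dox. These levels are low beside the main isoform. Cox8c made up 1.18 ± 0.756% of the summed FPKM of the Cox8 genes in EpiLC and 0.0604 ± 0.0690% in ESC (SD, n = 3 each), and Cox8a nearly all of the rest.

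**Figure D4:**
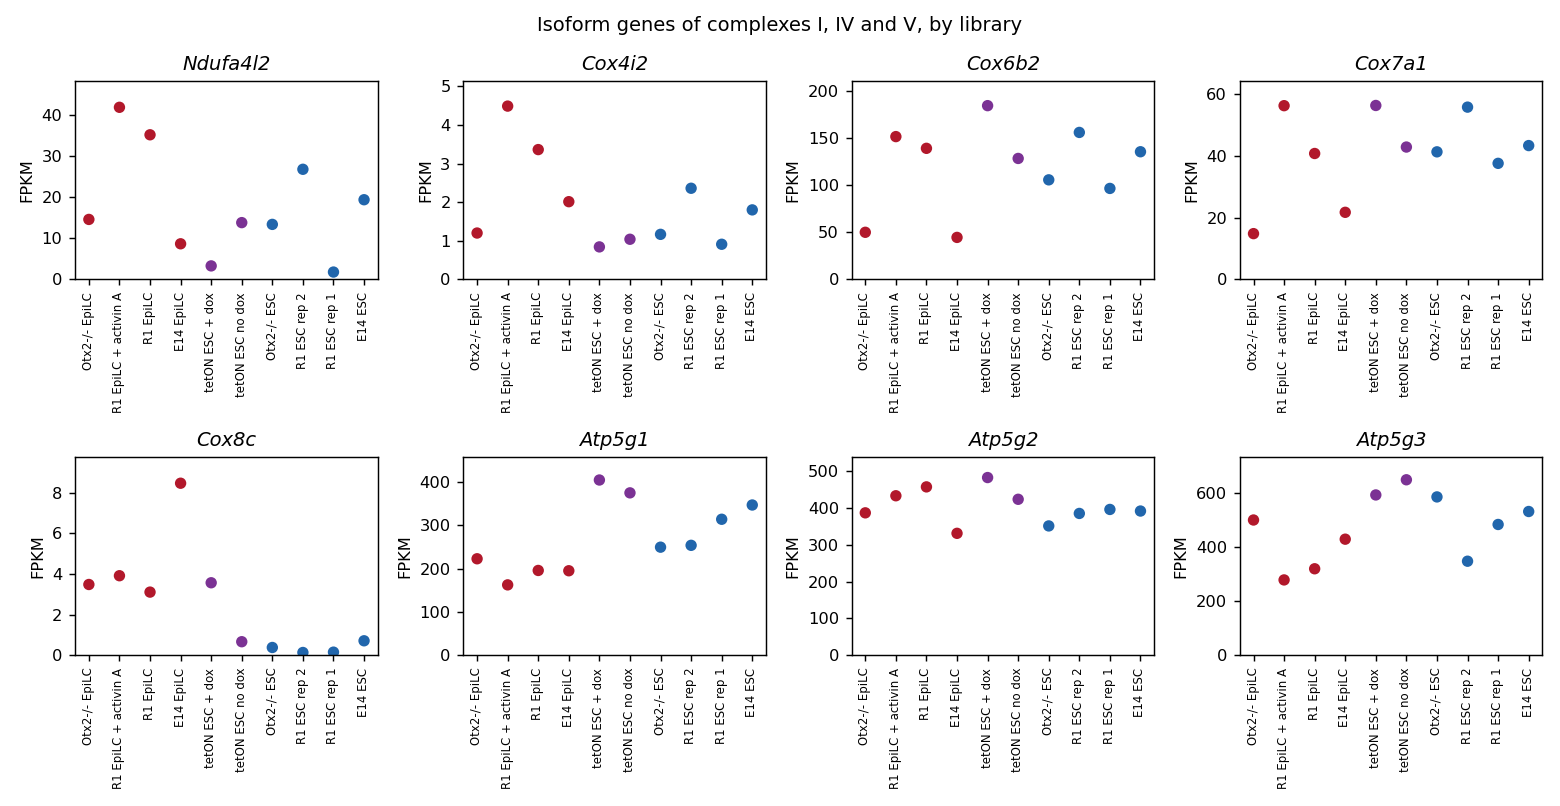
FPKM (y axes, from 0) of 8 isoform genes in each of the 10 libraries (x axes), with EpiLC in red, Otx2-/- tetON ESC in purple and other ESC in blue. Each point is 1 library. Cox8c is high in the EpiLC libraries and with dox, and Ndufa4l2, Cox6b2 and Cox7a1 differ between EpiLC libraries.

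Ndufa4l2, Cox6b2 and Cox7a1 varied widely between libraries and lines. Ndufa4l2, a relative of Ndufa4 known to be induced by low oxygen, had 41.8, 35.1 and 8.65 FPKM in EpiLC, against 26.8, 1.78 and 19.4 FPKM in ESC. Its log2 fold change was 1.08 with an SE of 1.06. The deposited table gives it the same locus as Shmt2, a mitochondrial serine hydroxymethyltransferase, which had 49.7, 47.7 and 55.3 FPKM in EpiLC, against 114, 107 and 106 FPKM in ESC. Cox6b2, an isoform known from testis, had 151, 139 and 44.4 FPKM in EpiLC, against 156, 96.3 and 135 FPKM in ESC. It made up 40.8%, 36.1% and 18.1% of the summed FPKM of Cox6b1 and Cox6b2 in EpiLC, against 31.4%, 18.1% and 27.3% in ESC. Cox7a1, the heart and muscle isoform, had 56.2, 40.7 and 21.7 FPKM in EpiLC, against 55.7, 37.5 and 43.3 FPKM in ESC. The Otx2-/- line had 14.6 FPKM of Ndufa4l2 in EpiLC, against 13.4 FPKM in ESC. Cox6b2 and Cox7a1 were lower in EpiLC than in ESC in E14 and in the Otx2-/- line, and not in R1. In each of these genes E14 EpiLC was the lowest of the EpiLC libraries of R1 and E14.

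The c subunit of ATP synthase is encoded by Atp5g1, Atp5g2 and Atp5g3, which give the same mature protein with different import sequences. Atp5g1 made up 19.7 ± 0.987% of their summed FPKM in EpiLC and 26.5 ± 0.806% in ESC (SD, n = 3 each). The share of Atp5g2 was 43.7 ± 7.98% in EpiLC and 34.3 ± 4.23% in ESC, and that of Atp5g3 36.5 ± 7.28% in EpiLC and 39.2 ± 3.50% in ESC. In the Otx2-/- line the share of Atp5g1 was 20.09% in EpiLC, against 21.05% in ESC, so the difference seen in R1 and E14 was small there. That rests on 1 ESC library, and the Otx2-/- tetON ESCs had 25.9% without dox and 27.4% with it. Cox4i2 made up 0.874 ± 0.365% of the Cox4i sum in EpiLC and 0.328 ± 0.184% in ESC (SD, n = 3 each) and did not pass (0.67, limma adjusted p = 0.183). Cox7a2l, a factor of respiratory supercomplexes, was at -0.23 and Cox7b at -0.61, neither past the threshold.

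R1, E14 and Otx2-/- cells each went through the conversion in separate libraries. In the Otx2-/- line the 4 EpiLC markers summed to 384 FPKM in EpiLC, against 45.4 FPKM in ESC. The 4 naive markers summed to 22.0 FPKM in EpiLC, against 528 FPKM in ESC. Of the EpiLC markers, Fgf5 was at 5.18 FPKM in Otx2-/- EpiLC, against 28.4 to 35.8 FPKM in R1 and E14 EpiLC. Pou3f1 (74.2 FPKM) and Dnmt3b (289 FPKM) were not below the range of R1 and E14 EpiLC. The median log2 fold change of the set, EpiLC over ESC, was -0.26 in R1, -0.33 in E14 and -0.30 in Otx2-/-, while that of all 12271 genes was -0.10, -0.03 and -0.03. Of the 83 genes, 46 (55.4%) were lower in EpiLC in all 3 lines, against 35.0% of all genes, and 5 (6.02%) were higher in all 3, against 27.5%. The 5 were Cox8c, Atp5s, Atp5e, Cox4i2 and Atp5sl. By complex, the number lower in all 3 lines was 21 of 37 in complex I, 3 of 4 in II, 5 of 8 in III, 7 of 17 in IV and 10 of 17 in V. All 10 genes that fell in R1 and E14 were also lower in Otx2-/- EpiLC, with log2 ratios from -0.80 to -0.16. In that line 64 of the 83 genes were lower, against 6458 of all 12271. The share among all genes that fell in R1 and E14 was not computed. The median of complex IV was -0.03 in R1, -0.44 in E14 and -0.42 in Otx2-/-, and that of complex I was -0.09 in R1, -0.40 in E14 and -0.30 in Otx2-/-. The difference between complexes was not tested.

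**Figure D5:**
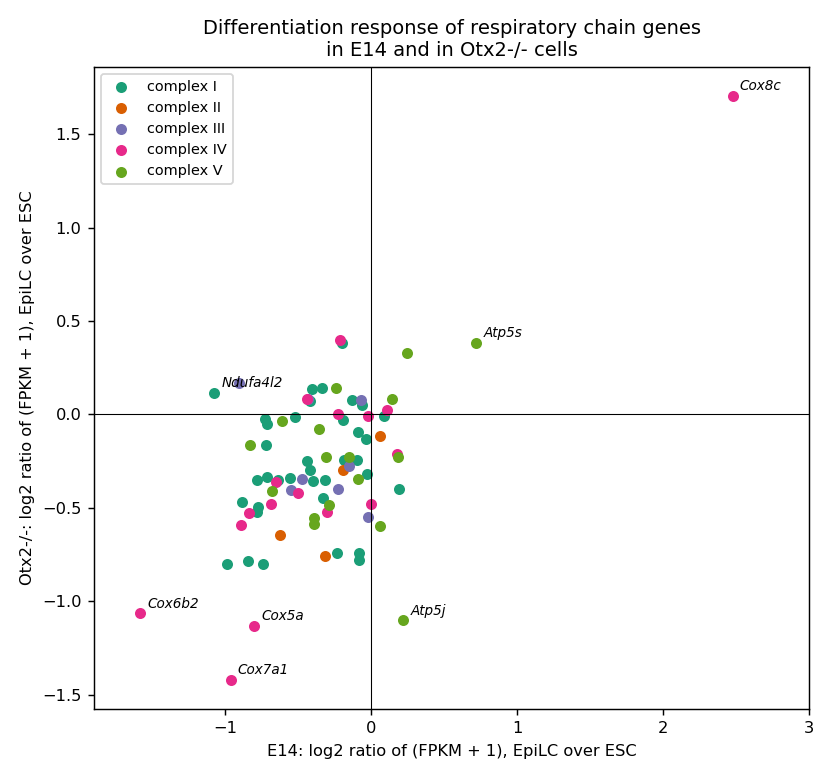
Log2 ratio of (FPKM + 1), EpiLC over ESC, in E14 cells (x axis) and in Otx2-/- cells (y axis) for the 83 genes, coloured by complex. Each point is 1 gene from 1 library per state. Most points lie at the lower left, with Cox8c farthest to the upper right.

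In E14 alone, without replicate, 1 gene was higher and 2 lower by at least 2-fold with 5 FPKM in 1 of the pair, where 6.89% of 9283 genes were higher and 9.24% lower. Cox8c had 8.47 FPKM in EpiLC, against 0.704 FPKM in ESC. Cox6b2 had 44.4 FPKM in EpiLC, against 135 FPKM in ESC, and Ndufa4l2 had 8.65 FPKM in EpiLC, against 19.4 FPKM in ESC. Of 81 genes of the set that reached 5 FPKM, 70 were lower in EpiLC, against 5015 of all 9283. In the Otx2-/- line, 0 genes were higher and 4 lower, where 6.99% of 9324 genes were higher and 8.47% lower. Cox7a1 had 14.8 FPKM in EpiLC, against 41.3 FPKM in ESC, and Cox5a had 246 FPKM in EpiLC, against 539 FPKM in ESC. Atp5j, coupling factor 6 of ATP synthase, had 105 FPKM in EpiLC, against 227 FPKM in ESC, and Cox6b2 had 49.9 FPKM in EpiLC, against 105 FPKM in ESC. The E14 response was set against the R1 response with an interaction term, and 0 of the 83 genes passed in either direction (limma, where 0.123% of genes were higher and 0.204% lower). At an unadjusted p under 0.05 there were 2 (2.41%, against 3.10% of all genes), Cox6b2 (-1.82, SE 0.50) and Atp5j (0.86, SE 0.30), with limma adjusted p of 0.914 for both. Without R1 ESC replicate 2, Ndufa4l2 passed at -4.90 (limma adjusted p = 0.0271), while with all 6 libraries it was at -3.24.

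Loss of Otx2 was compared within each state. In EpiLC, 0 of the 83 genes passed between the Otx2-/- library and the 3 R1 and E14 libraries (limma, where 0.139% of 12271 genes were higher and 0.0244% lower), with a median log2 fold change of -0.05. At an unadjusted p under 0.05 there was 1 (1.20%, against 3.59% of all genes). It was Cox7a1, which had 14.8 FPKM in Otx2-/- EpiLC, against 56.2, 40.7 and 21.7 FPKM in R1 and E14 EpiLC (-1.26, SE 0.50, limma adjusted p = 0.960). In ESC, 0 genes passed (limma, background 0.0896% higher and 0.0489% lower), none at an unadjusted p under 0.05 (1.08% of all genes), with a median of -0.02. The difference between the response of Otx2-/- cells and that of R1 and E14 cells passed for 0 genes (limma, background 0.179% higher and 0.0978% lower), none at an unadjusted p under 0.05 (1.58% of all genes), and its median was -0.05. Each Otx2-/- group was 1 library, and the lone library was assumed to vary like the others. The Otx2-/- cells are a line apart from R1 and E14, so genotype and line cannot be told apart. A gene that did not pass is not shown to be alike. The standard errors of these contrasts bound what could be seen. In EpiLC that of Ndufb3 was 0.15, that of Atp5j 0.31 and that of Cox7a1 0.50 on the log2 scale. Those of Cox6b2 and Ndufa4l2 were wider, at 0.69 and 1.42. In the difference of responses that of Ndufa4l2 was 2.01.

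Overexpression of Otx2 was examined in 1 library with dox against 1 without, with no replicate check. By the same size rule, 0 genes were higher with dox and 1 was lower, where 6.42% of 9304 genes were higher and 5.71% lower. Ndufa4l2 had 3.28 FPKM with dox, against 13.8 FPKM without. Shmt2, whose locus it shares, had 44.4 FPKM with dox, against 93.7 FPKM without. The median log2 ratio over the 79 genes that reached 5 FPKM was 0.01, against -0.06 over all genes, and the ratios spread from -1.79 to 0.52. At the upper end, Cox6b2 had 184 FPKM with dox, against 128 FPKM without, and Cox6a1 had 656 FPKM with dox, against 468 FPKM without. All 4 complex II genes were lower with dox, with a median of -0.10, and so were 5212 of all 9304 genes. The cytosolic ribosomal protein genes, another family of short and abundant transcripts, had a median of 0.19 with 72 of 79 above 0. The tetON cells without dox were set against the Otx2-/- ESCs as a check of the line, and the 2 comparisons share the library without dox. The Otx2-/- ESC library is also shared with the EpiLC and ESC pair of that line. In the tetON cells without dox against the Otx2-/- ESCs, 0 genes were higher and 0 lower (1.34% and 1.36% of 8951 genes). The median was 0.15, against 0.03 over all genes, and 59 of 79 genes were above 0, against 4931 of all 8951. Cytosolic ribosomal protein genes had a median of 0.24 in that pair.

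Activin A made no difference of 2-fold in any of these genes. In R1 EpiLC with activin A against without, 0 were higher and 0 lower, where 1.07% of 8963 genes were higher and 1.07% lower. The ratios were small and of 1 sign for most, with a median of -0.12 against -0.01 over all genes. Of the set, 69 of 80 genes were below 0, against 4658 of all 8963. Cytosolic ribosomal protein genes shared this, with a median of -0.14 and 79 of 79 below 0, and so did mitochondrial ribosomal protein genes at -0.11. Cox7a1 had the largest ratio upward, with 56.2 FPKM with activin A, against 40.7 FPKM without. There is no replicate behind this pair.

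The R1 ESC replicates show how far such genes can differ within a group. Between replicate 2 and replicate 1, 4 genes were higher and 2 lower by the size rule, where 5.42% of 9149 genes were higher and 6.09% lower. Ndufa4l2 had 26.8 FPKM in replicate 2, against 1.78 FPKM in replicate 1, and Ndufc1 had 166 FPKM in replicate 2, against 51.4 FPKM in replicate 1. Atp5s had 7.45 FPKM in replicate 2, against 2.67 FPKM in replicate 1, and Atp5e had 219 FPKM in replicate 2, against 107 FPKM in replicate 1. Uqcr11 had 271 FPKM in replicate 2, against 648 FPKM in replicate 1, and Cox4nb had 14.7 FPKM in replicate 2, against 31.8 FPKM in replicate 1. The median over the 80 genes of the set that reached 5 FPKM was -0.10, against -0.22 over all genes that did. Over the 83 genes with a mean of 1 FPKM it was -0.04, against -0.11 over all such genes. Between the 5 ESC libraries without dox, the median difference of these 83 genes was 0.00195 to 0.145 in size on the log2 scale over the 10 pairs.

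Other genes of the same pathway were read as lists, beside the 10.6% of all genes that were lower and the 9.73% that were higher in EpiLC. None of 5 carriers and subunits outside the symbol pattern was called, and cytochrome c1, Cyc1, had 169 ± 27.6 FPKM in EpiLC and 222 ± 20.7 FPKM in ESC (SD, n = 3 each; limma adjusted p = 0.130). Of 27 tested assembly factors, 0 rose and 1 fell. It was Cox19, which takes part in copper delivery to cytochrome c oxidase, with 12.7 ± 0.920 FPKM in EpiLC and 22.9 ± 1.69 FPKM in ESC (SD, n = 3 each; limma adjusted p = 0.0161). Of 16 citric acid cycle genes and their regulators, 1 rose and 2 fell. Pdk1, a kinase that inhibits pyruvate dehydrogenase, rose by 0.97 on the log2 scale (limma adjusted p = 0.0168). Sucla2, a succinyl-CoA ligase subunit, fell by 0.72 (limma adjusted p = 0.0186), and Idh3b, a subunit of isocitrate dehydrogenase, fell by 0.52 (limma adjusted p = 0.0390). Of 15 regulators, 0 rose and 1 fell. It was the orphan nuclear receptor Esrrb, which also marks the naive state. Of 75 mitochondrial ribosomal protein genes 1 rose and 3 fell, and of 80 cytosolic ones 0 rose and 2 fell, with medians of -0.14 for both. The median log2 fold change was -0.30 for the regulators, -0.26 for the citric acid cycle list and -0.25 for the assembly factors. These lie near the -0.30 of the respiratory chain set, while the median of the 5 carriers and subunits was -0.05. Of the mitochondrial and cytosolic ribosomal protein genes, 26.7% and 28.8% were lower in EpiLC in all 3 lines. The same share was 29.6% for the assembly factors and 43.75% for the citric acid cycle list. In R1 and E14, 72% of the mitochondrial and 72.5% of the cytosolic ribosomal protein genes had a log2 fold change below 0. So did 70.4% of the assembly factors, 68.75% of the citric acid cycle list and 66.7% of the regulators, against 78.3% of the set. For the 5 carriers and subunits it was 60%.

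Respiratory chain transcripts are short, with a median of 651 bases, against 2128 bases for all genes tested that matched a GENCODE transcript. Among all genes under 1000 bases the median log2 fold change was -0.10 and 9.68% fell, while the 63 respiratory chain genes of that length had a median of -0.30 and 12.7% fell. Shared reads may limit single values. RefSeq lists a named copy or pseudogene for 13 of the 85 genes, Ndufb4 among those called, and 10 share a deposited locus with another gene, none of them among the 11 called. Overlap of exons within these loci was not checked.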

How the data were processed

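RNA was measured in 10 libraries, and per the labels' protocols oligo-dT purified RNA was fragmented, copied from random primers and read on an Illumina Genome Analyzer. The authors deposited 1 FPKM value per gene and library, and the submitters' processing notes name TopHat, Cufflinks and mm9. The sources used here give no versions, settings or annotation, and no strand-marking step is described. Each table held 23112 entries, of which 17 exact repeats were dropped and 228 were summed into a shared symbol.

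The test was limma (version 3.58.1, R version 4.3.3, two-sided, with eBayes and its trend option) applied to log2(FPKM + 1). It covered every gene whose mean reached 1 FPKM, with Benjamini-Hochberg adjustment and a threshold of 0.05. On this scale folds of low genes are understated. EpiLC and ESC of R1 and E14 were compared with line as a covariate, and Otx2-/- contrasts came from 8 libraries in 4 groups. The EpiLC group pooled R1 with activin A, R1 without it and E14, so its spread and SD take in any effect of activin A. Pairs of single libraries were read by a rule of size, a log2 ratio of at least 1 and 5 FPKM in 1 of the pair, with no p-value. The script was tested on simulated data. A p-value here reflects only how much these libraries vary. The labels' protocols speak of independent biological replicates of ESC and EpiLC culture without saying which libraries these are. Genes named were those called, the highest and lowest of each complex, core subunits and isoform families, and 1 gene of the set is not reported here by itself. The genes of the set, the lists and the tests were chosen with earlier results of these data known. Depth was approximated from the lowest values of 1110 olfactory receptor entries, with transcripts taken as 1 kb, and is rough. Figures were drawn with matplotlib 3.10.9. Promoters are from RefSeq and transcript lengths from GENCODE, both on GRCm38. Alternatives were other pseudocounts, filters, scalings, sample sets and leaving out each library.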

Additional observations from a re-analysis of the deposited data

How the results depend on the processing

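In EpiLC against ESC, the count of respiratory chain genes called lower was 10 with FPKM as deposited and lay between 0 and 18 when 1 library was left out, and the count called higher lay between 1 and 2. The lower count was 0 without R1 EpiLC with activin A, R1 EpiLC without it, E14 EpiLC or E14 ESC, 18 without R1 ESC replicate 1 and 12 without R1 ESC replicate 2. Over all genes, the lower share was 1.53% to 2.81% in the first 4 of these fits, 18.1% and 7.91% in the others, and 10.6% with all libraries. The fits without E14 EpiLC and without E14 ESC both rest on the R1 libraries for the difference between states, so they are not separate checks. The count of the set was 6 after quantile normalization (7.23%, against 11.1% of all genes), where the median of the set moved to -0.11. At a mean of at least 5 FPKM it was 7 (8.75%, against 10.9%), and there Cox8c is filtered out and the higher count is 0. With other pseudocounts it was 10 (12.0%, against 10.7%), and with median-ratio scaling also 10 (12.0%, against 9.56%). That scaling moved the median of all genes to -0.01 and that of the set to -0.21. Of the 10 lower genes, 7 to 10 of 14 alternatives kept each call, and Cox8c was called in 13 of 13. A further 30 genes that were not called changed sign under some alternative. Leaving out 1 library gave 0 to 1 genes called lower in the E14 response minus the R1 response. The EpiLC minus ESC difference in the share of FPKM moved to -0.107 percentage points in complex III, -0.0468 in IV and -0.0584 in V when entries above the 99th percentile were left out, and the share of the whole set then overlapped between EpiLC (2.54% to 2.93%) and ESC (2.85% to 3.20%). With 1 FPKM in 1 of a pair, 1 gene was higher with dox and 1 in Otx2-/- EpiLC against ESC. After quantile normalization 1 was lower in E14 EpiLC against ESC. Between R1 ESC replicate 2 and replicate 1, 1 was lower after median-ratio scaling, and 1 lower and 8 higher after quantile normalization. The cause of these shifts was not tested. Libraries could not be paired by replicate number, because only the R1 ESC libraries carry such numbers, which no other group shares. Line, which both states share, was a term of the fit, and without it 12 genes were lower (14.5%, against 12.6% of all genes). E14 EpiLC, the shallowest library, limits the precision of low genes such as Cox8c.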
